A study of Mus musculus with 2 samples.

Results

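The genes described here are 8 endolysosomal channels and transcription factors of mouse: the TRPML channels Mcoln1, Mcoln2 and Mcoln3, the TPC channels Tpcn1 and Tpcn2, and the MiT factors Tfeb, Tfe3 and Mitf. They were chosen by name, as every probe set whose single gene symbol in the platform annotation is one of these 8. That gave 14 probe sets of the 34945 that carry 1 gene symbol, and 8 of 18193 genes. The choice was made with earlier results of these data known, in which Mcoln2 had been seen higher with the ligands. The ratios below are from that same contrast and are therefore a description, with no test.

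The TRPML channels are cation channels of endosomes and lysosomes that open when the lipid PI(3,5)P2 binds them and let calcium out of the organelle. The TPC channels sit in the same membranes, respond to the same lipid and carry sodium or, on the second messenger NAADP, calcium. Calcium released through TRPML1 activates the phosphatase calcineurin, which removes phosphates from TFEB. TFEB, TFE3 and MITF are held in the cytoplasm by the kinase complex mTORC1 at the lysosome, and once in the nucleus they bind E-boxes with the core CACGTG in promoters of lysosomal and autophagy genes. In macrophages this circuit is known for its part in phagosome maturation, membrane trafficking and the response to bacterial products.

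Expression was measured in RAW264.7, a macrophage-like cell line of mouse, that stably expressed mouse LXRalpha after chemical transfection. One group was cultured for 24 h with the LXR agonist GW3965 at 1 µM together with the RXR agonist LG268 at 100 nM, and the other for 24 h with the solvent DMSO. Both groups carried the introduced LXRalpha, and each ligand alone or untransfected cells were not analysed here. Whether the line was 1 clone or a pool was not given in the sources used here. Each group had 1 Affymetrix mouse array, so no difference has a replicate check, and every fold below compares these 2 arrays.

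Values are MAS5 signals, the deposited intensities on a linear scale. The trimmed mean signal was 2500.0 on both arrays. Signals under a floor of 276.4, the median of all probe sets that are not controls, were set to it before ratios were taken. A gene or probe set counted as measured when the higher of its 2 signals exceeded the floor. A ratio with 1 side at the floor is a bound and is given with "at least". From the disagreement of the 2 brightest probe sets of 4866 genes, the log2 ratio of a probe set had an SD of 0.28. It was 0.38 for probe sets whose mean log2 signal was below that of a signal of 2838 and 0.18 for brighter ones. That spread describes measurement on these arrays and says nothing of the spread between cultures. In RNA from a whole culture, more cells with a transcript and more transcript per cell cannot be told apart.

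The treatment was visible in known LXR targets, since the cholesterol exporters Abca1 and Abcg1 had log2 ratios of 4.76 and 1.91 and the lipogenic factor Srebf1 had one of 1.67. Nr1h3, the gene of LXRalpha, had a signal of 5577 with the ligands and 3150 with DMSO, a log2 ratio of 0.82, and whether its probe set also reads the introduced copy was not given in the sources used here. All 10 macrophage markers examined were measured, among them Csf1r, Cd14 and Spi1. No fibroblast marker was measured by its brightest probe set, and 1 of 5 lymphocyte, 1 of 5 melanocyte and 1 of 6 dendritic cell markers with a probe set was, each with a signal of at most 426.1 on either array.

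The family of TRPML channels held both the largest difference among the members and the only member that was not measured. The 250 bases before an annotated start of each of its members are shown because the E-box bound by MiT factors can be read in them. Windows are from RefSeq on GRCm38.p6, all on the plus strand, written 5′ to 3′ and ending at the last base before the start. They lie at chr8:3500269-3500518 for Mcoln1, chr3:146149924-146150173 for Mcoln2 and chr3:146121541-146121790 for Mcoln3. Capitals mark CACGTG, and TCACGTG where that longer form, read on either strand, is present.
Mcoln1: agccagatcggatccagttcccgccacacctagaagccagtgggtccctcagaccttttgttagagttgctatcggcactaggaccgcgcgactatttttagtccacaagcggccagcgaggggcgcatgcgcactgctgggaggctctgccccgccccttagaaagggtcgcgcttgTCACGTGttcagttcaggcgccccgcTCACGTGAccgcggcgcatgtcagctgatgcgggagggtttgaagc
Mcoln2: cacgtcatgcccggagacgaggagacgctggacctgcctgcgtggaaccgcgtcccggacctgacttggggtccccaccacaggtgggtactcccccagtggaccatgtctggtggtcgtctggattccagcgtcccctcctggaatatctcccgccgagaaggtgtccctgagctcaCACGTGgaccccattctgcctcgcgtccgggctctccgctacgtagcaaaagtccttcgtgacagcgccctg
Mcoln3: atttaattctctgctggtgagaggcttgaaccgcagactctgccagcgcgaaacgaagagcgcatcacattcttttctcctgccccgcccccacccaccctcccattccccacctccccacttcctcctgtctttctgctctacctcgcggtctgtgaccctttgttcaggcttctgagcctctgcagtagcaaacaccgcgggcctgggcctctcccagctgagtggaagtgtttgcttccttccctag
Mcoln1 held 2 CACGTG matches, starting 71 and 45 bases before the gene start, both also within matches of TCACGTG. Mcoln2 held 1 CACGTG match, starting 72 bases before the start used for its window, with no TCACGTG. In Mcoln3 neither was present in the window. Of 32851 promoter windows of this length in the table, 6.02% held CACGTG and 3.13% held TCACGTG. The RefSeq gene models of Mcoln2 and Mcoln3 begin upstream of these windows, by 128 bases for Mcoln2 and 28264 bases for Mcoln3. Other starts are therefore annotated, and both windows, with the CACGTG of Mcoln2, lie downstream of the first base of the gene model.

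Mcoln2 encodes TRPML2, the family member that in mouse macrophages is induced by bacterial products and resides on recycling endosomes. Its single probe set, 1431705_a_at, had a signal of 1317 with the ligands and 273 with DMSO. The ligand value was well above the floor and the DMSO value just under it. Mcoln2 was therefore at least 4.77-fold higher with the ligands, a log2 bound of 2.25, and the 2 signals as deposited stand in a ratio of 4.82. Over all measured genes, 185 of 11077 (1.67%) passed 2-fold upward and 86 (0.776%) downward, and Mcoln2 was the only one of the 7 measured members at least 2-fold apart. By size of ratio, bounds included, it ranked 19 among the 11077 genes. The contrast chose the gene, so these places add nothing to its own value. With 1 probe set that carries its symbol alone, no second measurement of Mcoln2 was available. Probe sets with several symbols or none were not searched for it. Taking the median of probe sets with 1 gene symbol, 406.5, as the floor gave a bound of 3.24-fold.

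**Figure D1:**
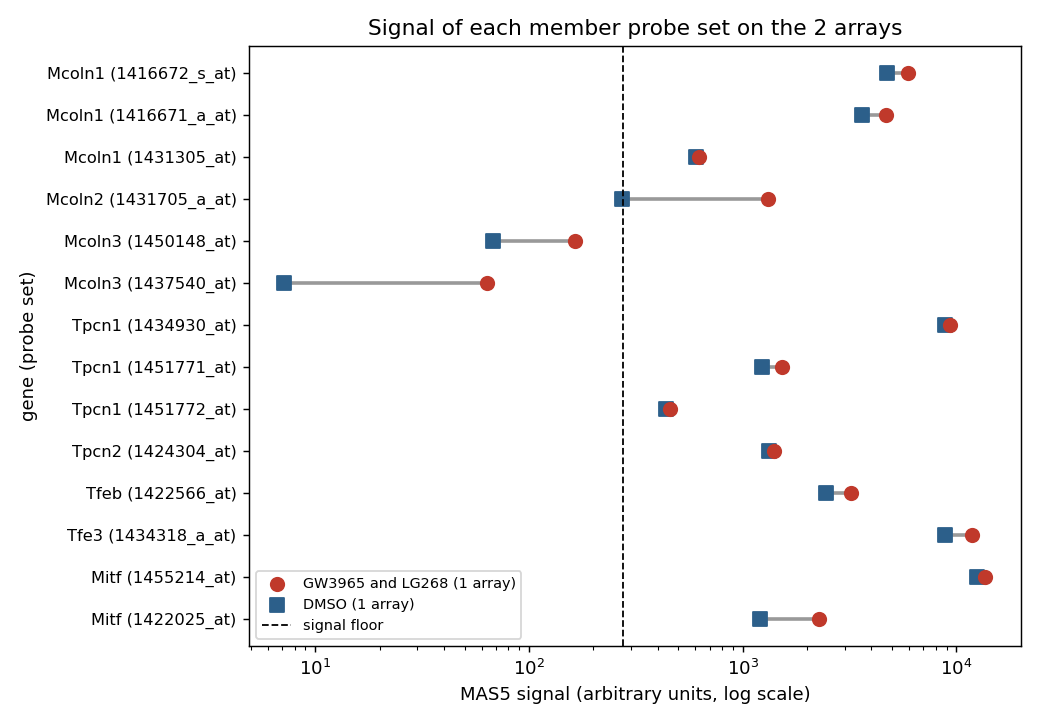
MAS5 signal (log axis) of the 14 member probe sets on the ligand array (circles) and the DMSO array (squares), 1 array each, with the floor as a dashed line. Every circle lies right of its square; the gap is wide for Mcoln2 (1317 with the ligands, 273 with DMSO) and for Mcoln3, whose 4 values all lie under the floor.

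Mcoln1 encodes TRPML1, the lysosomal calcium channel whose loss in people causes mucolipidosis type IV. Its brightest probe set, 1416672_s_at, had a signal of 5907 with the ligands and 4710 with DMSO. A second, 1416671_a_at, had 4696 with the ligands and 3606 with DMSO. Both were modestly higher with the ligands and their log2 ratios, 0.33 and 0.38, lay close to each other, 0.05 apart. The third, 1431305_at, had 627 with the ligands and 608 with DMSO, a log2 ratio of 0.05. None of the 3 reached 1.5-fold, a level that 1522 of 20731 measured probe sets (7.34%) passed upward and 1239 (5.98%) passed downward.

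Mcoln3 encodes TRPML3, the channel altered in the deaf varitint-waddler mouse. Probe set 1450148_at had a signal of 163 with the ligands and 68.0 with DMSO. Probe set 1437540_at had 63.9 with the ligands and 7.16 with DMSO. Both probe sets were under the floor on both arrays, so Mcoln3 was not measured and no fold is given. The ligand signal was the higher in each. With the floor lowered to the 25th percentile of the same probe sets, 70.2, Mcoln3 was at least 2.33-fold higher by 1450148_at, while 1437540_at was still under the floor on both arrays.

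Mcoln2 and Mcoln3 are neighbours on mouse chromosome 3 in RefSeq. The next 3 protein-coding genes with a probe set on each side of Mcoln2, examined after the values of Mcoln2 were known, are Syde2, Wdr63 and Mcoln3 before it and Lpar3, Ssx2ip and Ctbs after it. Of these 6, only Ssx2ip and Ctbs were measured by the brightest probe set of each. Ssx2ip, a centrosome protein, had a signal of 1854 with the ligands and 2428 with DMSO, a log2 ratio of -0.39, and a second probe set at 0.21. Ctbs, the lysosomal chitobiase, had 2665 with the ligands and 3005 with DMSO, a log2 ratio of -0.17. Its 3 probe sets ran from -0.26 to 0.07. Neither of these neighbours was 1.5-fold apart, and Lpar3, a lysophosphatidic acid receptor, had signals of only 14.9 with the ligands and 53.5 with DMSO.

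By the brightest probe set of each gene, the TPC channels showed the smallest differences of the 3 families. Tpcn1 encodes TPC1, found on early and recycling endosomes as well as lysosomes. Its brightest probe set, 1434930_at, had a signal of 9360 with the ligands and 8834 with DMSO, a log2 ratio of 0.08. Probe set 1451771_at had 1525 with the ligands and 1234 with DMSO, a log2 ratio of 0.31, and probe set 1451772_at had 455 with the ligands and 439 with DMSO, a log2 ratio of 0.05. The brightest pair of Tpcn1 lay 0.22 apart, a gap that 50.6% of 4866 genes reached or exceeded. Tpcn2 encodes TPC2, the lysosomal and melanosomal member. Its single probe set, 1424304_at, had 1402 with the ligands and 1327 with DMSO, a log2 ratio of 0.08. Both genes thus differed between the arrays by less than the probe set SD of 0.28 in their brightest probe set.

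Of the MiT factors, Tfeb and Tfe3 were each about 1.3-fold higher with the ligands, and the probe sets of Mitf disagreed. Tfeb, the regulator of lysosome number and autophagy, had a signal of 3221 with the ligands and 2460 with DMSO in its single probe set. That is 1.31-fold, a log2 ratio of 0.39. Tfe3, its close relative that is also active in macrophage immune responses, had 11795 with the ligands and 8805 with DMSO. That is 1.34-fold, a log2 ratio of 0.42, again from a single probe set. Neither reached 1.5-fold. The mean log2 signal of Tfeb was just below that of a signal of 2838, in the range where the probe set SD was 0.38. The signals of Tfe3 are in the range where the SD was 0.18.

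Mitf, the factor of melanocytes and osteoclasts that is made from several promoters, had a signal of 13670 with the ligands and 12534 with DMSO in its brightest probe set, 1455214_at. The other probe set, 1422025_at, had 2278 with the ligands and 1210 with DMSO. By the first Mitf was 1.09-fold higher, a log2 ratio of 0.13, and by the second 1.88-fold higher, a log2 ratio of 0.91. The gap of 0.79 is wide for 2 probe sets of a gene, since 294 of 4866 genes (6.04%) had a gap at least that large. Which Mitf transcripts each probe set detects was not given in the sources used here. There were 3 promoter windows for Mitf, 3 for Tfeb and 2 for Tfe3, and none of them held CACGTG in its 250 bases. Several begin inside the gene model: 122565 and 184531 bases after its start for Mitf, 644 and 48457 for Tfeb, and 1163 for Tfe3. The receptor half-site AGGTCA, found on either strand in 14.0% of all windows, was present in 1 member window, that of Mitf beginning at 97806808 on chromosome 6. The direct repeat of AGGTCA with 4 bases between the copies, the type of element LXR binds with RXR, was in no window of the 7 members that have one and in 5 of all 32851. These exact letters say nothing of sites outside the windows or of variant sites.

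Tfec, the remaining MiT gene, is transcribed mainly in macrophages and osteoclasts and was not among the 8. Its probe set had a signal of 412 with the ligands and 616 with DMSO, 1.49-fold lower with the ligands at a log2 ratio of -0.58. It was the only MiT gene whose brightest probe set was lower with the ligands, and its signals are in the range where the probe set SD was 0.38.

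**Figure D2:**
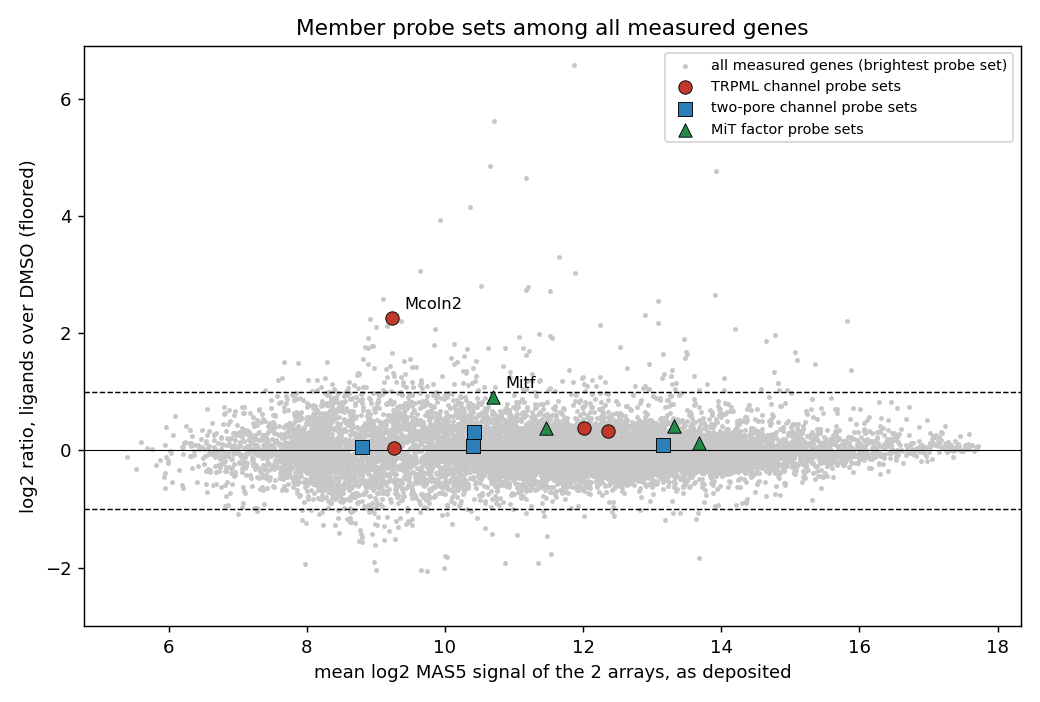
Log2 ratio, ligand array over DMSO array (floored signals) against mean log2 signal for the 11077 measured genes (grey) and the 12 measured member probe sets (coloured by family). Dashed lines mark 2-fold. Mcoln2 lies at 2.25, the dimmer Mitf probe set at 0.91, and the other member probe sets between 0.05 and 0.42.

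Across the members, all 12 measured probe sets had a ratio above 1, and their median log2 ratio was 0.32. For comparison, 47.3% of 20731 measured probe sets had a ratio above 1, with a median of -0.02. By the brightest probe set of each gene, all 7 measured members were above 1 with a median of 0.33, against 46.2% and a median of -0.03 over all genes. Apart from Mcoln2 and the dimmer probe set of Mitf, the 10 others spanned log2 ratios of 0.05 to 0.42 and lay within 1.5-fold. Over all measured probe sets 7.34% passed 1.5-fold upward and 5.98% downward, and 1.8% and 1.07% passed 2-fold. Mcoln2 counted as measured only through its ligand signal, so its floored ratio could only lie above 1. These counts come from the contrast with which the members were proposed, and nothing further is read from them. Probe sets of 1 gene share its RNA and are not separate measurements of the condition.

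With 2 arrays a pattern is a pair of signals, so likeness to Mcoln2 was taken as the distance between the pairs of log2 signals of the brightest probe set of each gene. The 5 nearest genes were Zfat (distance 0.13), Prrg4 (0.20), Pram1 (0.34), Dhrsx (0.43) and Plpp3 (0.48). Zfat, a zinc finger factor, had 1208 with the ligands and 269 with DMSO, and Prrg4, a membrane protein with a Gla domain, had 1411 with the ligands and 307 with DMSO. Likeness here means only a similar dim signal with DMSO and a similar signal with the ligands.

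Genes that work with the members were described through 6 lists, of which 94 distinct genes had a probe set and 89 were measured. Among these 89, 3 passed 2-fold upward with the ligands and 2 downward, against 1.67% and 0.776% of all measured genes. The lists were written with results of these data known.

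Other channels and transporters of the endolysosomal membrane had a median log2 ratio of 0.08, against -0.03 over all genes. With 21 genes measured, 2 passed 2-fold upward, 4 passed 1.5-fold upward and none passed 1.5-fold downward. Over all measured genes these shares were 1.67%, 6.36% and 4.77%. Slc15a3, a peptide and histidine transporter of lysosomes in immune cells, had 10129 with the ligands and 2306 with DMSO, 4.39-fold higher. Slc11a1, the phagosomal metal transporter NRAMP1, was 2.77-fold higher. The lysosomal cystine exporter Ctns was 1.63-fold and the nucleoside transporter Slc29a3 1.54-fold higher. The lowest was the arginine sensor Slc38a9 at a log2 ratio of -0.47, with 7 probe sets from -0.48 to 0.33. By their brightest probe sets, Trpm7, a plasma membrane and vesicle channel kinase, had a log2 ratio of -0.19, and P2rx4, the ATP-gated lysosomal channel, had one of 0.54, with a second probe set at 0.66. The chloride-proton exchangers Clcn3 and Clcn5 had probe sets that disagreed, 5 from -0.21 to 0.68 for Clcn3 and 3 from 0.08 to 1.04 for Clcn5. Kcnma1, a potassium channel, was under the floor on both arrays.

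The list for PI(3,5)P2, the lipid that opens both channel families, held enzymes that make or remove it or its precursor, and their partner proteins. Its median log2 ratio was -0.13 over 9 measured genes. None was 2-fold apart by its brightest probe set, though Mtm1, a phosphatase of the same family as Mtmr2, had 3 probe sets from 0.03 to 1.20. Mtmr2, a phosphatase that removes a phosphate from this lipid, was highest, with 5766 with the ligands and 3473 with DMSO, 1.66-fold higher. Pikfyve, the kinase that makes the lipid, named after its value was seen, had 4149 with the ligands and 2779 with DMSO. That is 1.49-fold higher, and the log2 ratios of its 3 probe sets ran from 0.51 to 0.79. Its partners Fig4 and Vac14 had log2 ratios of -0.23 and -0.13, beside an SD of 0.18 for probe sets this bright. Pik3r4, a subunit of the kinase complex that makes the precursor lipid, was the lowest at -0.39.

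Calcium and NAADP partners of the channels had a median log2 ratio of -0.04 over 9 measured genes, with none 2-fold apart. Ppp3cc, a catalytic subunit of calcineurin, had 827 with the ligands and 1295 with DMSO, 1.57-fold lower, and its 2 probe sets were at -0.65 and -0.59. The other catalytic subunits, Ppp3ca and Ppp3cb, had log2 ratios of 0.01 and -0.04 by their brightest probe sets. Lsm12, an NAADP-binding partner of the TPC channels, was the highest at 0.34.

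The mTORC1 and Rag machinery and other genes that control MiT factors had a median log2 ratio of 0.07 over 22 measured genes, with none 2-fold apart. Fnip2, which with folliculin controls the Rag GTPase that recruits TFEB, had 5225 with the ligands and 3122 with DMSO, 1.67-fold higher in its single measured probe set. By their brightest probe sets, folliculin itself, Flcn, had a log2 ratio of 0.35 and Fnip1 one of 0.49. A second probe set of Flcn was at 0.15, and the 3 probe sets of Fnip1 ran from -0.39 to 0.49. The 14-3-3 protein Ywhaz was 1.64-fold higher by its brightest probe set, but its 7 probe sets spanned -1.14 to 0.80. Rptor, the mTORC1 scaffold raptor, was the lowest at -0.50, with a second probe set at 0.13. Rragd, the Rag gene known as a MiT target, was under the floor on both arrays, with 218 with the ligands and 193 with DMSO.

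Known MiT targets of lysosome and autophagy function had a median log2 ratio of 0.24, the highest of the 6 lists, and 21 of 26 measured genes had a ratio above 1, against 46.2% of all measured genes. Only Ctsd, the protease cathepsin D, was at least 2-fold higher, at a log2 ratio of 1.37, and only Fnip2 besides it was at least 1.5-fold higher, against 1.67% and 6.36% of all measured genes. The proton pump subunits Atp6v0d1 and Atp6v1h had log2 ratios of 0.53 and 0.51. Atp6v1h also had a second probe set at 1.01. Autophagy genes of the list lay on both sides of 0 by their brightest probe sets: the lipid scramblase Atg9b had a log2 ratio of 0.48, Map1lc3a 0.44, Wipi1 0.34, the autophagy receptor Sqstm1 0.25, Gabarapl1 0.23, Becn1 0.14, Wipi2 0.06, Uvrag 0.05, Ulk1 -0.01, Atg16l1 -0.14 and Map1lc3b -0.22. Second probe sets of Ulk1 and Sqstm1 were at 0.68 and 0.66, and the 3 of Wipi1 ran from 0.34 to 0.70. Probe sets fell on both sides of 0 for Becn1 (-0.18 to 0.31), Wipi2 (-0.11 to 0.13) and Map1lc3b (-0.22 to 0.05). Hif1a was the lowest at -0.30, with 4 probe sets from -0.38 to 0.30.

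The list of MiT targets of osteoclasts had a median log2 ratio of -0.57 over 7 measured genes, of which 2 passed 2-fold downward, against 0.776% of all measured genes. Acp5 and Ctsk, the osteoclast phosphatase and protease, had log2 ratios of -1.92 and -1.11. Atp6v0d2, a pump subunit of osteoclasts, had 1494 with the ligands and 2243 with DMSO, a log2 ratio of -0.59, and Dcstamp, the fusion receptor, was at -0.57. Clcn7 and Ostm1, the lysosomal chloride exchanger and its subunit, were at 0.29 and 0.08 by their brightest probe sets. The 3 probe sets of Clcn7 ran from -0.18 to 0.29. Oscar, an immunoreceptor of osteoclasts, had 315 with the ligands and 94.0 with DMSO. Its DMSO signal was under the floor, so its log2 ratio of 0.19 is a lower bound and does not show that it was within 1.5-fold, and with the floor at 70.2 it was 3.35-fold higher. Osteoclast markers, which share several genes with this list, were lower in part: 4 of 8 measured were at least 2-fold lower, against 0.776% of all measured genes. Mmp9, a matrix protease, was 1.58-fold higher, with 509 with the ligands and 321 with DMSO, and a second probe set at -0.03. Nfatc1, the osteoclast transcription factor, had 5127 with the ligands and 10328 with DMSO, and its 5 probe sets ran from -1.57 to 0.37. With all 10 counted, their summed signal was 13719 with the ligands and 26050 with DMSO, to which Nfatc1 gave more than any other marker on both arrays. Calcr and Itgb3 were under the floor on both arrays, and the part of these markers in the values of the list was not tested.

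**Figure D3:**
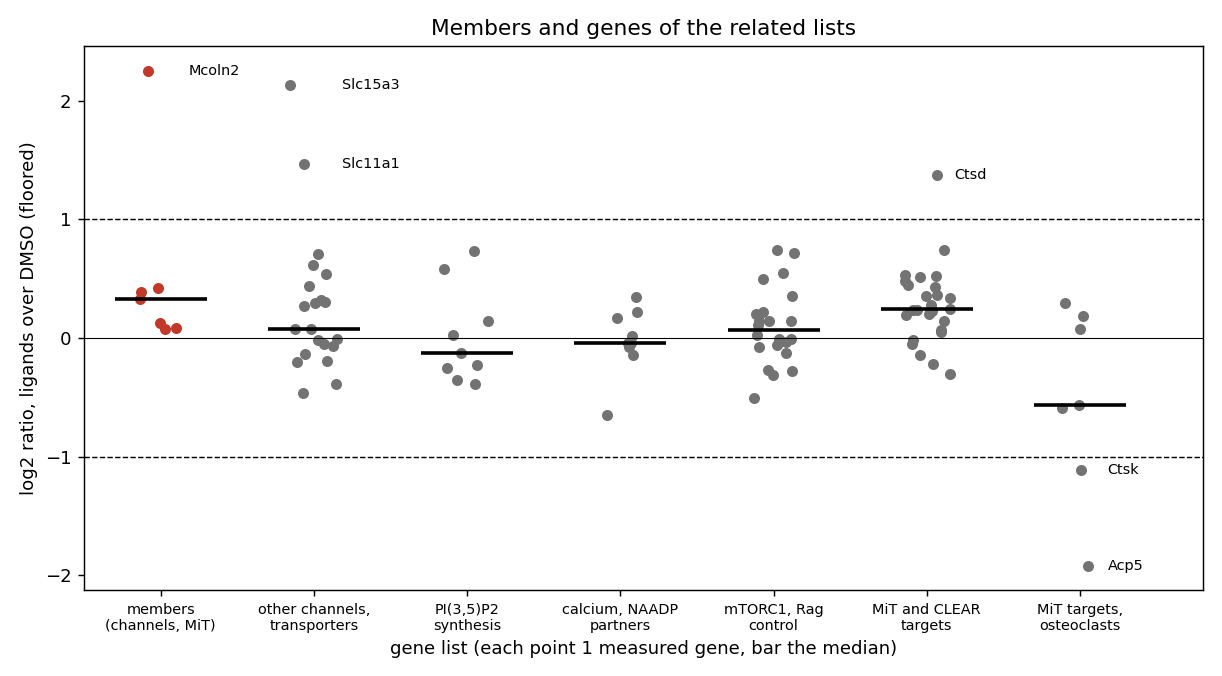
Log2 ratio, ligand array over DMSO array, for each measured gene (points, brightest probe set) of the members and of 6 related lists, with the median of each as a bar and 2-fold as dashed lines. The medians run from 0.33 for the members and 0.24 for MiT and CLEAR targets to -0.57 for MiT targets of osteoclasts, and 6 genes lie beyond 2-fold.

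The log2 ratios of the 12 measured member probe sets were above 0 in every setting that gave them a value, while the call of Mcoln2 at 2-fold depended on the floor. At a floor of 2186, the 75th percentile, both of its signals were under the floor and no ratio could be given. Its log2 ratio ran from 1.70 to 2.27 in the settings that gave one.

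**Figure D4:**
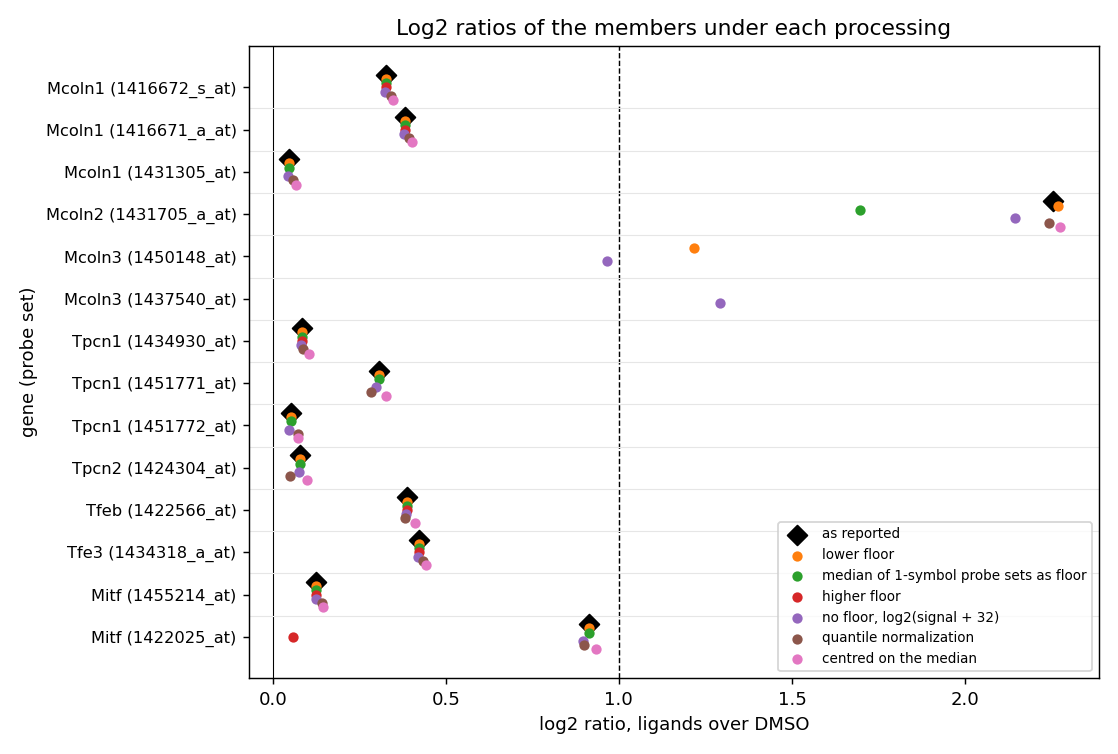
Log2 ratio, ligand array over DMSO array, for each member probe set as reported (diamonds) and under 6 other floors or scalings (circles), with 2-fold dashed. Mcoln2 lies between 1.70 and 2.27, and the Mcoln3 probe sets have a value only with a lower floor or none. The dimmer Mitf probe set is at 0.06 with the higher floor, a lower bound, since its DMSO signal is then under the floor.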

How the data were processed

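RNA of RAW264.7 cells was hybridised to Affymetrix mouse arrays, 1 per group, and the authors deposited 1 intensity per probe set. Per the submitters' processing notes the tool was MAS5, in a version not given in the sources used here. It merges perfect-match and mismatch probes and scales each array, so ratios stand against the rest of the array. Of 45101 probe sets, 34945 had 1 gene symbol in the platform annotation, 932 several, 9160 none, and 64 were controls. All 14 member probe sets matched by symbol. The probe set with the highest mean log2 signal stood for its gene. The floor planned was the 50th percentile of gene probe sets, a wording that allows 2 readings. It was taken over the 45037 that are not controls, as in earlier processing of these data, and this was settled after values under both readings had been seen. The other reading, probe sets with 1 gene symbol, gives 406.5 and is kept as an alternative. Log2 ratios of the ligands over DMSO came from floored intensities. With 1 array per group there was no test and no p-value. The members, the lists and the alternatives were chosen with earlier results of these data known. Named were all members, Tfec, Abca1, Abcg1, Srebf1, Nr1h3, up to 6 genes of each list at least 1.5-fold apart, each list's extremes, and the 5 genes nearest Mcoln2. Further list members, quoted for their role, were chosen after their values were seen. List names were matched through RefSeq GRCm38.p6 synonyms. Alternatives were other floors, log2(signal + 32), quantile normalization, centring, the mean over probe sets, leaving out _s_at and _x_at probe sets, and 1.5-fold and 3-fold thresholds. Python 3.11.15, numpy 2.4.6 and pandas 2.3.3 were used, and the procedure was tested on simulated data.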

Additional observations from a re-analysis of the deposited data

How the results depend on the processing

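The number of arrays limits every value, and signals near or under the floor have no reliable ratio. The count of member probe sets at least 2-fold higher was 1 and became 2 with the floor at the 25th percentile (Mcoln3 then had a log2 bound of 1.22), 2 with no floor (its other probe set, at 1.29), 2 at 1.5-fold and 0 with the floor at the 75th percentile. By gene it was 1, and 2 and 0 with the lower and the higher floor. Fewer probe sets are measured at a higher floor by construction. Mcoln2 had a log2 bound of 1.70 with the floor at 406.5, an alternative added after seeing the data, and 2.25 as reported. No member was 2-fold lower in any setting, and the median log2 ratio of member probe sets ran from 0.31 to 0.35. Genes of the related lists at least 2-fold higher numbered 3, and 5 with the lower floor and 5 with no floor. They numbered 4 with the mean over probe sets, 8 at 1.5-fold and 1 at 3-fold. The lower ones numbered 2, and 3 with the lower floor, 3 with no floor and 3 with the mean over probe sets. Their number was 0 with the higher floor, 4 at 1.5-fold and 1 at 3-fold. The median of the PI(3,5)P2 list was above 0 in 2 of 8 settings (range -0.13 to 0.05), and the other list medians kept their sign. No paired analysis was possible because each group has 1 array.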

Other observations

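With the floor lowered to the 25th percentile, 3 more genes of the related lists were 2-fold apart. Oscar, an immunoreceptor of osteoclasts and a known MiT target, was 3.35-fold higher, with signals of 315 with the ligands and 94.0 with DMSO, opposite in direction to Acp5 and Ctsk. Kcnma1, the large-conductance potassium channel also found in lysosomes, was at least 2.68-fold higher (188 with the ligands, 37.9 with DMSO), and Itga9, an integrin subunit, was at least 2.17-fold lower (22.3 with the ligands, 152 with DMSO). These signals are dim, each gene was read from its brightest probe set, and no replicate bears on them.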
